A study of Homo sapiens with 4 samples.

Results

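The epidermal differentiation complex is a cluster of genes on the long arm of chromosome 1 that encode the proteins of the outer, cornified layers of squamous epithelium. The members described here were defined by gene name, in a choice made with earlier results of these data known. The rule took every row of the deposited expression table whose symbol begins with S100A, SPRR or LCE and a digit. It also took FLG, FLG2, HRNR, CRNN, RPTN, TCHH, TCHHL1, IVL and LOR. This gave 55 of 25548 gene symbols, of which 17 were S100 genes, 11 SPRR genes, 18 LCE genes and 9 others, and all 55 lie on chromosome 1 in RefSeq. They were followed in FaDu, an established squamous carcinoma line from the hypopharynx, which had received either vehicle only (labelled DMSO; the protocol names ethanol as the vehicle of TSA) or 5-aza-2'-deoxycytidine (Aza) at 5 µM on days 1 to 3 and trichostatin A (TSA) at 100 nM on day 3. Aza is built into DNA, where it depletes DNA methyltransferases so that methylation is lost, and TSA inhibits histone deacetylases. The 2 agents were given together, so their separate effects cannot be told apart. Messenger RNA was sequenced from 1 stranded library per group, so the differences could not be tested against a spread between replicates and have no p-value.

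Keratinocytes moving from the basal layer to the surface replace their plasma membrane with the cornified envelope, a sheet of proteins crosslinked by transglutaminases. Involucrin (IVL) and the small proline-rich proteins (SPRR) are laid down early, loricrin (LOR) and the late cornified envelope proteins (LCE) follow, and filaggrin (FLG) and its S100 fused-type relatives bundle keratin or strengthen the envelope. The S100 proteins are small calcium-binding proteins with paired EF hands; several act in epithelia at large and in other tissues, while S100A7, S100A8 and S100A9 are best known from inflamed epidermis and, for the last pair, from neutrophils.

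Promoter letters are shown first, because the treatment acts on DNA methylation, which in human cells sits at CG dinucleotides, and because activator protein 1 (AP-1) is a known regulator of IVL and SPRR genes. Windows of 300 bases, from 250 before to 50 after each gene's start, were taken from RefSeq (GRCh38.p14, another build than the hg19 of the expression table) for 50 of the 55 members. No window was matched for LCE1B, S100A7L2, SPRR2C, SPRR2D and SPRR2E. SPRR1B, SPRR2F and IVL are printed for their AP-1 letters (TGANTCA) and TATA letters (TATAAA), which are in capitals, each read 5′ to 3′ on the gene's own strand. The windows are SPRR1B at chr1:153030953-153031252 on the plus strand, SPRR2F at chr1:153113467-153113766 on the minus strand and IVL at chr1:152908296-152908595 on the plus strand.
SPRR1B: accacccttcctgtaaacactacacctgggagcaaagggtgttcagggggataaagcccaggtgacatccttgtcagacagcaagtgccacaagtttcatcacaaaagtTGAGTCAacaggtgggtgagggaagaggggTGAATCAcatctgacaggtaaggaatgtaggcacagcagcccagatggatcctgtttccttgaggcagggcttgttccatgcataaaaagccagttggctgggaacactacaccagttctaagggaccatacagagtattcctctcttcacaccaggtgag
SPRR2F: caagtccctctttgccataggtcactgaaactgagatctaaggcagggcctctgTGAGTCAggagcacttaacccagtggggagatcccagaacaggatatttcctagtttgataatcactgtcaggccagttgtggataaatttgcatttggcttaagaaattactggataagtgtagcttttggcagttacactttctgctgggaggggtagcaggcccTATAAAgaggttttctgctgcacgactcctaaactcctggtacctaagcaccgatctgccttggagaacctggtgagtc
IVL: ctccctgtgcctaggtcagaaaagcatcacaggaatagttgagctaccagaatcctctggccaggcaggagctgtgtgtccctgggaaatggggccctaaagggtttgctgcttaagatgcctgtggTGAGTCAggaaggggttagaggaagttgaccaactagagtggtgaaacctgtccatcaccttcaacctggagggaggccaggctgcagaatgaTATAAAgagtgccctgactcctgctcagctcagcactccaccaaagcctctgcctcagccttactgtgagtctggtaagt

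S100A7 is printed for its TATA letters, again in capitals. It is the S100 gene with the widest difference between the libraries, and its window is chr1:153460602-153460901 on the minus strand.
S100A7: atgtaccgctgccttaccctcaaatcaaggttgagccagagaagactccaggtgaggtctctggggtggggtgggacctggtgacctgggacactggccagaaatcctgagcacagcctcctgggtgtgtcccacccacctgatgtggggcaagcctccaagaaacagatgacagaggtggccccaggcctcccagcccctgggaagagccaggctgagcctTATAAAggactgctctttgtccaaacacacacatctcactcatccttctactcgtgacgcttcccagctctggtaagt

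S100A16 and S100A10 are printed as windows with few and with many CG dinucleotides, which are the capitals here. Both genes were abundant, and they were chosen from opposite ends of the range of differences among the abundant S100 genes. The contrast does not run through those genes: S100A6, with 31 CG, was called higher in the treated library, and S100A14, with 5, was not. The windows are S100A16 at chr1:153613088-153613387 on the minus strand and S100A10 at chr1:151993810-151994109 on the minus strand.
S100A16: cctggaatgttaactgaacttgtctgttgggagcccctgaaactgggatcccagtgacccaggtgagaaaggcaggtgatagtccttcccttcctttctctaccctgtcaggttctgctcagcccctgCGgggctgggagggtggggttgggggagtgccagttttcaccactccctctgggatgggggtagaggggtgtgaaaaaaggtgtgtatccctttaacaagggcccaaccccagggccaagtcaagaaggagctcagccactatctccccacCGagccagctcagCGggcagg
S100A10: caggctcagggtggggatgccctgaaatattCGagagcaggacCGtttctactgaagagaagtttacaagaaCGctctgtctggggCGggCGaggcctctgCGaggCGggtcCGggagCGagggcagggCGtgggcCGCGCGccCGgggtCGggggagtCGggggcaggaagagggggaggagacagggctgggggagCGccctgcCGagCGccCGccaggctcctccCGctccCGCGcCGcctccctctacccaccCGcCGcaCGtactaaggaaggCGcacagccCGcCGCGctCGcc

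CG dinucleotides were sparse in most member promoters. The median was 3 per window in the members and 14 over all 35116 promoters, and 35 of the 50 member windows held 3 or fewer, against 24.5% of all promoters. Only the windows of S100A10 (32), S100A6 (31), S100A11 (22) and S100A13 (19) held 10 or more CG, against 56.4% of all promoters. S100A16 held 3, S100A7 3, SPRR2F 2, and SPRR1B and IVL none.

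AP-1 letters stood in 17 of the 50 member windows (34%), against 7.71% of all promoters, and TATA letters on either strand in 26 (52%), against 11.5%. In 22 members the TATA letters began 25 to 35 bases before the start, against 2.64% of all promoters. SPRR1B held AP-1 letters 141 and 111 bases before its start and no TATA match. IVL held them 123 bases before, with TATA letters 30 bases before. The families differed in these letters: AP-1 matches were found in 6 of 8 SPRR windows and in 8 of 9 windows of the fused-type, IVL and LOR genes, in 3 of 16 S100 windows, and in 0 of 17 LCE windows. The Grainyhead-like letters AACCGGTT were found in no member window (0.134% of all promoters), and the interferon-stimulated response element in 1, that of LCE1C (3.57%). The last 2 motifs were searched on both strands, AP-1 and Grainyhead-like letters read the same on both, and no AP-1 match overlapped a TATA match in a member. These matches describe letters in the reference and are not shown to be bound or methylated in FaDu.

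**Figure D1:**
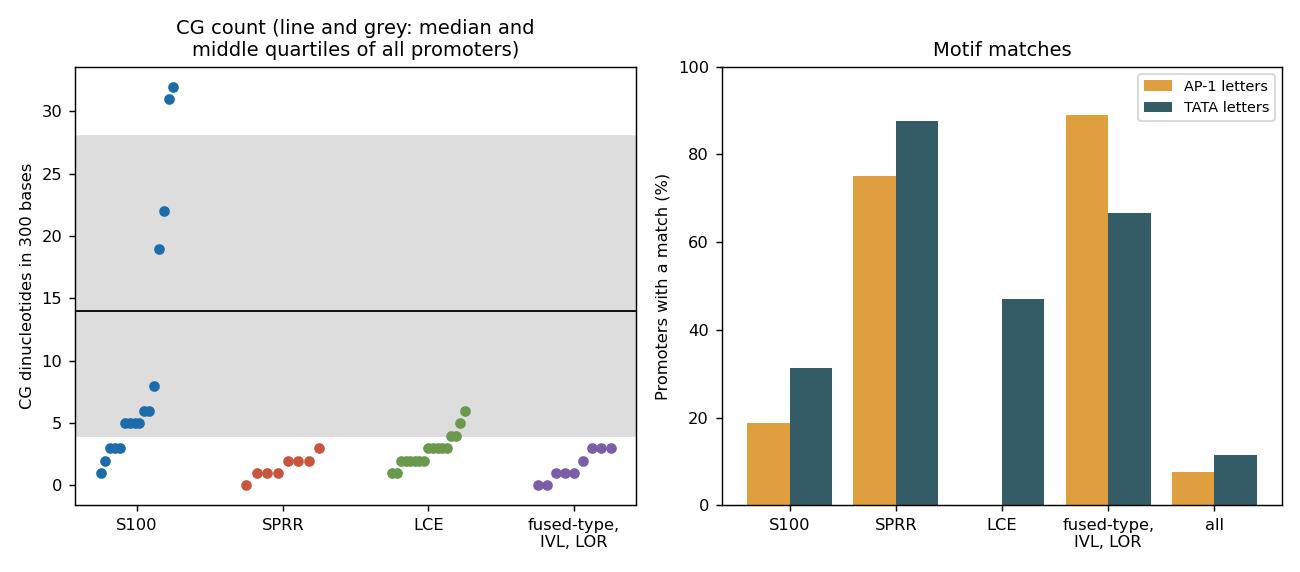
Left, CG dinucleotides in the 300-base promoter window of each member with a window, by family, beside the median (line, 14) and middle quartiles (grey) of all promoters. Right, percent of windows with AP-1 or TATA letters. The 4 points at 19 or more are all S100 genes, and the SPRR and fused-type groups have the highest bars for AP-1.

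The expression values are FPKM, fragments per kilobase of transcript scaled to the mapped fragments of the library. A gene counts as measured here at 1 FPKM or more in either FaDu library. A difference is log2 of (treated FPKM + 1) over (DMSO FPKM + 1), so the difference of a gene at a low level is understated. Any gene is called higher or lower at 2-fold on that scale. Of the 55 members, 21 were measured, 13 were called higher, 0 lower and 8 were within 2-fold. Over all measured genes of the table, 16.1% were higher, 5.21% lower and 78.7% within 2-fold. The median difference was 1.15 over the measured members and 0.13 over all measured genes, and 0.17 over all 55 members and 0 over all genes. A gene under 1 FPKM in the DMSO library is measured only if it reaches 1 FPKM when treated. The 13 thus include 6 genes for which the filter favours that call, and 61.3% of all genes measured in that way were higher. None of the 9 members measured in that way could be called lower. The other 7 belong to the 12 members that already had 1 FPKM or more in the DMSO library, all of them S100 genes. Among all 12062 genes at that level 10.5% were higher and 5.85% lower. The median difference of the 12 was 1.05, and that of the 12062 was 0.01. At 4-fold, 3 members were higher, SPRR2D, SPRR1B and S100A7, against 3.66% of all measured genes. All 3 were among the 9 measured members under 1 FPKM with DMSO, and 24.8% of all genes measured in that way were 4-fold higher. None of the 12 members at 1 FPKM or more with DMSO was (1.04% of all such genes). A switch from under 0.1 FPKM to at least 1 was listed for 3 members, SPRR2D, SPRR2F and LCE3D, and for 2.05% of all genes. The 7 SPRR2 genes together summed to 0.505 FPKM with DMSO. The switches of SPRR2D and SPRR2F may therefore depend on how reads were shared among these similar genes.

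How common a higher call was among all genes varied with the level in the DMSO library. Below 0.1 FPKM in the DMSO library all 3 measured members were higher, as were 97.9% of all genes there, and from 0.1 to 1 FPKM 3 of 6 were, against 41.6%. From 1 to 10 FPKM 2 of 4 members were higher, against 12.8% of genes (4.57% lower). From 10 to 100 FPKM both members, S100A13 and S100A9, were higher, against 8.07% (6.86% lower). At 100 FPKM and over 3 of 6 were higher, against 5.88% (10.7% lower). The shares above 1 FPKM are the ones that the filter does not set.

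**Figure D2:**
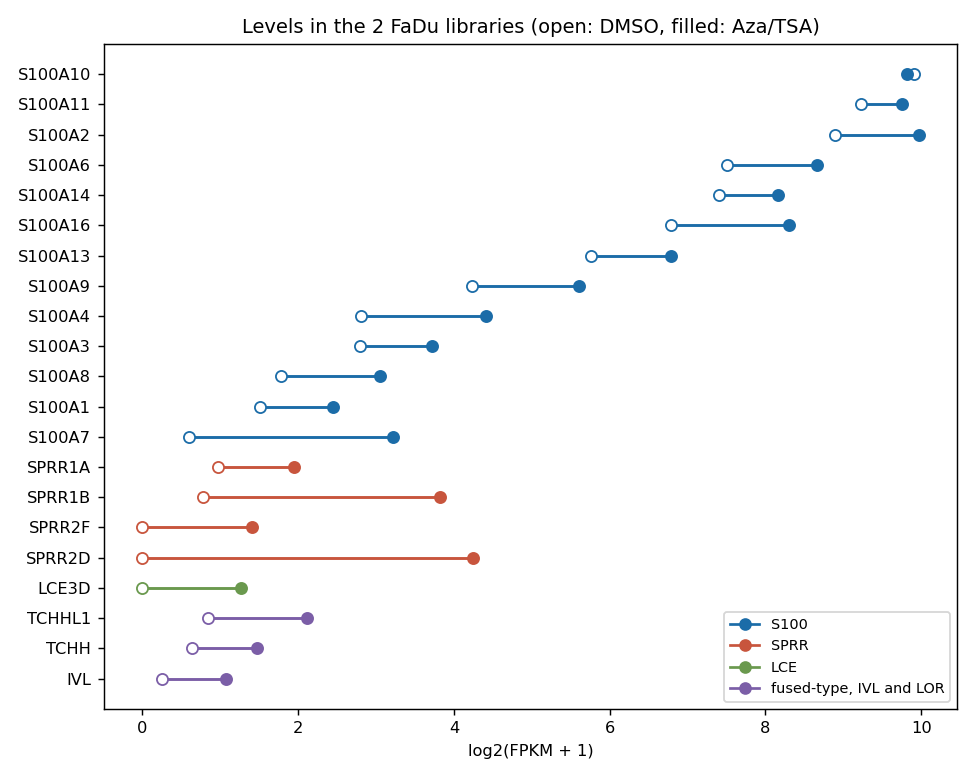
Level of each of the 21 measured members in the DMSO library (open circle) and the Aza/TSA library (filled circle), as log2(FPKM + 1), coloured by family. S100A10 is the one gene whose filled circle lies left of its open circle, and SPRR2D, SPRR2F and LCE3D start from 0.

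GC-rich transcripts stood higher in the treated library: difference and GC content had a Spearman correlation of 0.67 across the 7170 genes that reached 5 FPKM in each library, a description over genes of a single library pair. The members' transcripts were GC-rich, with a median of 54.7% over all 55 members, measured or not, against 49.9% for all measured genes. With the GC trend subtracted, 7 members were higher and 0 lower (7.28% and 4.55% of all measured genes with a GC value). Over all genes, higher calls made up 75.5% of the calls, and 61.5% with the GC trend subtracted or 62.3% with the differences centred on their median. Of the 12 S100 genes at 1 FPKM or more in the DMSO library, 2 were then higher, S100A4 and S100A8 (3.13% of all genes at that level). The median difference of the 12 was then 0.49, and that of all genes at that level with a GC value was -0.04. The trend was fitted on those 7170 genes but was subtracted in full at lower levels too, where the added 1 FPKM shrinks differences. LOR, listed at 0 in both libraries, would thus be given -1.11. Values with the GC trend subtracted are therefore uncertain for genes under 5 FPKM in either library. What part of the differences the GC content accounts for was not tested.

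The S100 genes held nearly all of the RNA. They summed to 2574 FPKM with DMSO and 3971 when treated, 0.523% and 0.769% of the column totals. S100A10, the partner of annexin A2 at the plasma membrane, was 956 FPKM with DMSO and 898 when treated. It ranked 61st of all genes with DMSO and 74th when treated, and its difference of -0.09 was close to the median of the 629 genes at 100 FPKM or more, -0.09. S100A11, a partner of annexin A1, was 599 and 861 FPKM, under the 2-fold line. S100A2, a p63 and p53 target of basal keratinocytes, was 474 and 1000.1 FPKM and ranked 67th when treated. In the DMSO library S100A2 stood at 0.495 times the level of S100A10, and in the treated library at 1.11 times, and was there the most abundant member.

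S100A6, or calcyclin, was 181 FPKM with DMSO and 403 when treated. S100A14, an epithelial S100 protein, was 168 and 284 FPKM. S100A16, a broadly expressed S100 protein encoded next to S100A14, was 109 and 316 FPKM. The neighbours S100A16 and S100A14 were in opposite order in the libraries, with S100A16 at 0.648 times S100A14 with DMSO and at 1.11 times when treated. The difference of S100A16, 1.52 on the log2 scale, was larger than that of 97.1% of the 629 genes at 100 FPKM or more, of which 5.88% were called higher. S100A2 at 1.08 and S100A6 at 1.15 stood above 94.8% and 95.1% of those genes. With the GC trend subtracted, S100A16 was at 0.93, S100A2 at 0.71 and S100A6 at 0.41, all under the 2-fold line.

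At intermediate levels, S100A13, which takes part in the release of proteins without a signal peptide, was 53.4 FPKM with DMSO and 109 when treated, a difference of 1.02 that was under the line after GC correction (0.58). S100A4, or metastasin, known from motile cells, was 6.01 and 20.4 FPKM. Its difference was 1.61, and 1.32 with the GC trend subtracted. S100A3, a protein of the hair cuticle, was 5.92 and 12.2 FPKM, and S100A1, best known from heart muscle, was 1.84 and 4.45 FPKM, both just under the 2-fold line at 0.93 and 0.94. The loci of S100A1 and S100A13 lie next to each other on opposite strands. The libraries were stranded, and whether the authors' counting used strand is not given in the sources used here.

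S100A8 and S100A9 form calprotectin, an antimicrobial dimer. S100A9 was 17.8 FPKM with DMSO and 47.5 when treated, and S100A8 was 2.44 and 7.30. The pair kept a similar ratio, with S100A9 at 7.30 times S100A8 with DMSO and 6.51 times when treated. S100A12, their neighbour and the third calgranulin, was listed at 0 in both libraries. S100A8 stayed above the 2-fold line with the GC trend subtracted (1.13), and S100A9 was under it (0.89). S100A7, or psoriasin, was 0.509 FPKM with DMSO and 8.27 when treated, a 16.2-fold ratio of the FPKM. Its difference of 2.62 hardly moved with the GC trend subtracted (2.56) and exceeded that of 93.6% of the 972 measured genes between 0.1 and 1 FPKM in the DMSO library. Those genes, S100A7 included, were measured only through the treated library, and 41.6% of them were called higher. S100A7 and its closely similar neighbour S100A7A share sequence that short reads may not separate. S100A7A was listed at 0 and 0.00730 FPKM, and S100A7L2 at 0 in both. S100A5 was listed at 0 and 0.118 FPKM.

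Because S100A8 and S100A9 are also genes of myeloid cells, markers of leukocytes were read beside them. Of 11 such markers 2 were measured, CD14 at 1.62 FPKM with DMSO and 4.59 when treated and the lysosomal gene CD68 at 13.0 and 51.3, and both were called higher. Of all genes at 1 FPKM or more with DMSO, 10.5% were higher. With the GC trend subtracted CD68 stayed above the 2-fold line (1.41) and CD14 was under it (0.47). The list summed to 14.9 and 56.7 FPKM, most of it CD68, and 4 of the 11 were listed at 0 with DMSO and 2 when treated. The pan-leukocyte gene PTPRC was at 0.0513 and 0.0385 FPKM and the neutrophil receptor gene CSF3R was listed at 0 in both libraries. Other lists of cell types not labelled here had 1 measured gene each, all called higher: PMEL of 4 melanocyte genes (sum 1.57 and 4.66 FPKM), COL1A1 of 6 fibroblast genes (0.794 and 3.64) and CDH5 of 4 endothelial genes (0.943 and 3.73). COL1A1 and CDH5 were measured only through the treated library, and of all genes measured in that way 61.3% were higher. PMEL, COL1A1 and CDH5 were not called with the GC trend subtracted (0.87, 0.43 and 0.71). Their part in the S100 values was not tested.

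Among the SPRR genes, which encode the short proline-rich crosslinkers of the envelope, 4 of 11 were measured, 3 were called higher and 0 lower. All 4 were under 1 FPKM with DMSO and so were measured only through the treated library, and none could be called lower. Of all genes measured in that way 61.3% were higher. The family summed to 2.58 FPKM with DMSO and 38.9 when treated, and SPRR1B and SPRR2D made up most of the second sum. SPRR1B was 0.719 FPKM with DMSO and 13.2 when treated, a ratio of 18.3. Its difference of 3.04, or 2.74 with the GC trend subtracted, was above that of 95.5% of the measured genes that started between 0.1 and 1 FPKM. Its close relative SPRR1A was 0.956 and 2.84 FPKM, and SPRR1B went from 0.752 times SPRR1A to 4.63 times. SPRR2D was listed at 0 FPKM with DMSO and at 17.9 when treated, the highest SPRR value in either library. SPRR2F was listed at 0 and then at 1.65 FPKM.

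The SPRR2 genes lie in a row and encode near-identical proteins, so the share of a single copy is uncertain and their sum is the safer value. The 7 SPRR2 genes summed to 0.505 FPKM with DMSO, all of it listed under SPRR2A, and to 22.1 when treated. In the treated library SPRR2A was at 0.940 FPKM, SPRR2B at 0.840, the transcribed pseudogene SPRR2C at 0.629 and SPRR2E at 0.0986, and SPRR2G was listed at 0 in both libraries. Counting differences of any size, 9 of the 11 SPRR genes stood higher in the treated library and 1 lower. Over all 25548 genes, 11929 stood higher and 8158 lower. The 1 lower gene was SPRR3, known from wet-surface squamous epithelium such as the oesophagus. It was at 0.0854 FPKM with DMSO and listed at 0 when treated, too low to show a different response. SPRR4 was at 0.318 and 0.743 FPKM.

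The LCE genes, which encode envelope proteins of late differentiation, were mostly listed at 0. Of 18 genes, 14 were listed at 0 in both libraries and 16 in the DMSO library. LCE3D, of the LCE3 group known from wounded and psoriatic skin, was the one measured member, listed at 0 with DMSO and at 1.40 FPKM when treated. LCE3E was at 0.147 and 0.513 FPKM, and LCE5A was listed at 0 and then at 0.194. LCE1F stood the other way, at 0.758 FPKM with DMSO and listed at 0 when treated. The LCE2 genes, LCE4A and LCE6A were listed at 0 in both libraries.

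Of the fused-type genes with IVL and LOR, 3 of 9 were measured and 1 was called higher. All 3 started between 0.1 and 1 FPKM, where 41.6% of all measured genes were higher. TCHHL1, a trichohyalin-like gene, was 0.788 FPKM with DMSO and 3.34 when treated. Its difference was 1.28, and 1.51 with the GC trend subtracted, its transcript being AT-rich at 43.7% GC. That trend was fitted on genes at 5 FPKM or more, so the second value is uncertain at this level. TCHH, trichohyalin of the hair follicle's inner root sheath, was 0.560 and 1.77 FPKM. IVL, the early envelope scaffold, was 0.185 and 1.11 FPKM, a difference of 0.83 that lay near the median of 0.90 for measured genes starting between 0.1 and 1 FPKM. Filaggrin and its nearest relatives stood lower in the treated library, all under 1 FPKM: FLG at 0.935 and 0.384, the hornerin gene HRNR at 0.550 and 0.240, and FLG2 at 0.0868 and 0.0334. The cornulin gene CRNN was at 0.0348 and 0.244 FPKM and the repetin gene RPTN at 0.0177 and 0.142. LOR, the main protein of the mature envelope, was listed at 0 in both libraries.

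**Figure D3:**
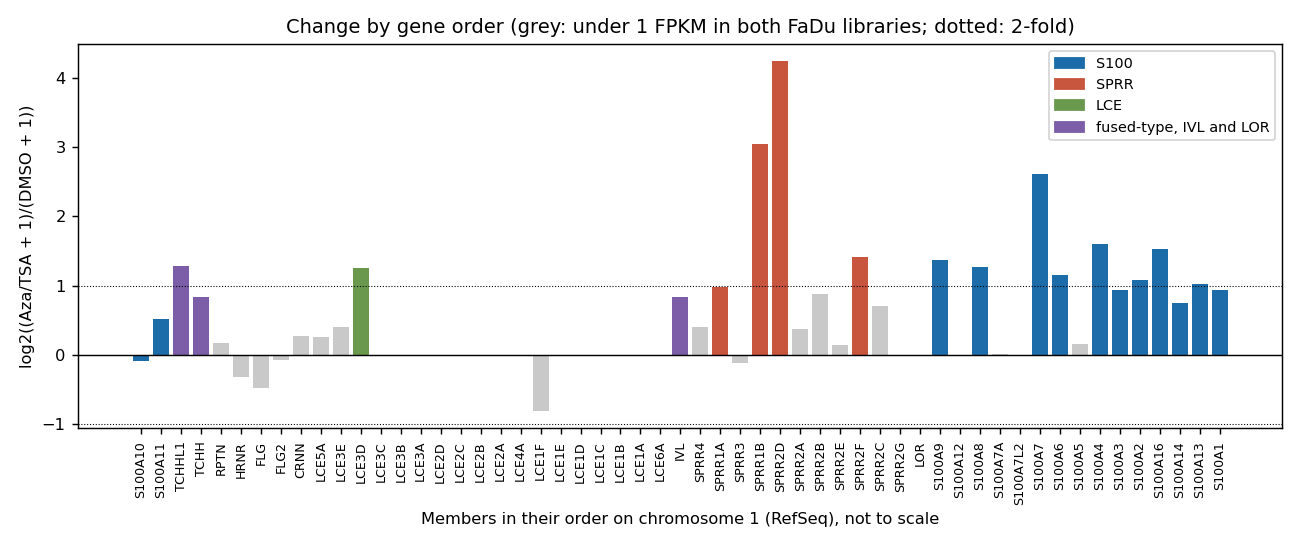
Difference between the FaDu libraries for all 55 members in their order along chromosome 1 in RefSeq, coloured by family where measured and grey where under 1 FPKM in both libraries; dotted lines mark 2-fold. Coloured bars stand at both S100 ends and over the SPRR genes, while the LCE stretch is nearly empty; bars of genes listed at 0 with DMSO depend on the added 1 FPKM.

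Along the chromosome the members fell into blocks. The S100 genes at one end, S100A10 and S100A11, had the smallest differences of the measured S100 genes, -0.09 and 0.52. The S100 block at the other end, from S100A9 to S100A1, held the 11 other measured S100 genes, with differences between 0.75 (S100A14) and 2.62 (S100A7). Between them, the LCE genes from LCE3C to LCE6A held no measured member. Of 12 other genes listed for the region, 9 are in the table and 2, THEM4 and THEM5, were measured; neither was 2-fold different. THEM4 was 5.60 FPKM with DMSO and 5.79 when treated, and THEM5 was 0.380 and 1.20. The keratinocyte gene KPRP, inside the LCE stretch, was at 0.0514 and 0.436 FPKM.

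**Figure D4:**
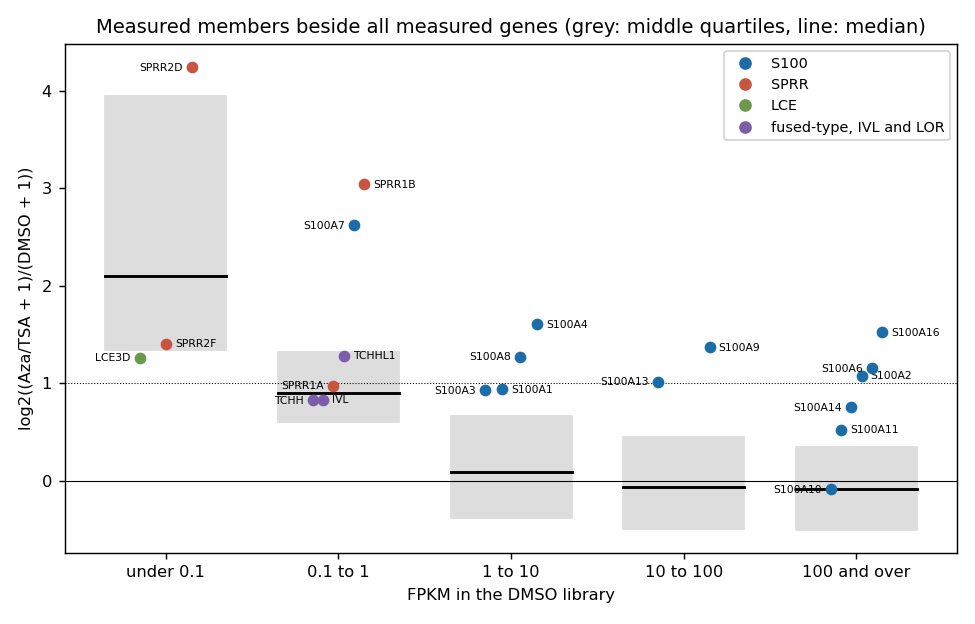
Difference of each measured member (points, coloured by family) against its level in the DMSO library, beside the median (line) and middle quartiles (grey) of all measured genes at that level. Above 1 FPKM in the DMSO library every member but S100A10 lies above the grey band; below 0.1 FPKM LCE3D and SPRR2F lie low in or under it.

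Many of the low values step in whole fragments, which shows how few fragments they may rest on. The ratio of the libraries was tested for lowest whole numbers, up to 40 for DMSO and 200 for treated, within 0.002%, after allowing for a 0.0145% difference in what 1 fragment is worth. Of 3703 genes between 0.01 and 1 FPKM in both libraries, 68.6% had such a ratio, against 12.0% of 508 genes at 100 FPKM or more. S100A7 stood at 65 to 4 and SPRR1B at 183 to 10, treated to DMSO. IVL stood at 6 to 1, CRNN at 7 to 1, RPTN at 8 to 1, LCE3E at 7 to 2, SPRR4 at 7 to 3 and FLG2 at 5 to 13. S100A8 stood at 3 to 1, S100A1 at 29 to 12 and S100A4 at 105 to 31. S100A9 stood at 99 to 37 and the abundant S100A11 at 23 to 16. Of the 26 members above 0 in both libraries, 13 had such a ratio. Some matches may be accidental, since 12.0% of the abundant genes had one. Where a match does reflect counts, the fragments may be any multiple of these numbers, which are then the fewest that give the listed ratio. The values of RPTN, CRNN, LCE3E and FLG2 may thus rest on a handful of fragments. In the DMSO library S100A7 and SPRR1B may rest on as few as 4 and 10, which limits their large ratios too.

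The enzymes that build and process the envelope did not all go one way. Of 19 genes for crosslinking, scaffold and envelope lipids, 14 were measured, 4 were higher and 2 lower (16.1% and 5.21% of all measured genes), with a median difference of 0.48 over those measured. SBSN and SERPINB2, among the 4, were measured only through the treated library. With the GC trend subtracted 3 were higher and 1 lower. The keratinocyte transglutaminase TGM1 was 6.80 FPKM with DMSO and 5.67 when treated, whereas the tissue transglutaminase TGM2 was 3.39 and 21.6. SBSN, which encodes suprabasin, was 0.115 and 17.3 FPKM and SERPINB2, an envelope-bound protease inhibitor, 0.152 and 18.8. Cystatin A (CSTA), an early envelope component, was lower, at 108 and 33.6 FPKM, as was the lipid transporter ABCA12 at 4.58 and 1.32. The elastase inhibitor elafin (PI3) was higher, at 4.10 and 10.1. Of 18 genes for processing filaggrin and the junctions of cornified cells, 14 were measured, 5 higher and 0 lower, with a median of 0.85. Of the 14, 5 were under 1 FPKM with DMSO and could not be called lower. Among the 5 called higher, KLK7, PADI2, CDSN and PADI1 were measured only through the treated library (61.3% of such genes were higher). With the GC trend subtracted 2 were higher, PADI3 and KLK7. The peptidylarginine deiminase PADI3, which modifies trichohyalin and filaggrin, was 3.53 and 15.1 FPKM, the protease KLK7 was listed at 0 and then at 2.05, and corneodesmosin (CDSN) at 0 and then at 1.40. The deiminases PADI2 and PADI1 were 0.372 and 2.43 FPKM and 0.0981 and 1.49. The filaggrin-processing caspase CASP14 was at 0.0202 FPKM with DMSO and listed at 0 when treated.

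Of 41 transcription factors and chromatin regulators of keratinocyte differentiation, 37 were measured, 5 were higher and 7 lower, and the median difference was -0.13. The 5 are a share close to the 16.1% over all measured genes, and 5.21% of those were lower. TP63, which drives squamous identity, was 73.7 FPKM with DMSO and 23.2 when treated. ZNF750, which promotes terminal differentiation, was 17.2 and 2.33 FPKM and KLF5 63.1 and 26.4. The aryl hydrocarbon receptor gene AHR was 16.3 and 4.29 FPKM. ETS1, an ETS factor, was higher, at 6.82 and 25.8 FPKM, as was OVOL1, a repressor in differentiating keratinocytes, at 3.05 and 11.5. KLF4, a further activator of terminal genes, was 27.0 and 19.2 FPKM, under the 2-fold line. Among AP-1 subunits FOSL1 was higher, at 86.1 and 229 FPKM, while FOS at 829 and 591 and JUN at 232 and 143 were within 2-fold. With the GC trend subtracted the list had 1 gene higher, ETS1, and 13 lower, among them FOS and JUN (7.28% and 4.55% of all genes), and FOSL1 was under the line (0.66). The squamous label of the line was checked on 9 markers, all of them measured in both libraries, among them KRT17 at 1164 and 1341 FPKM. KRT14 was higher, at 49.8 and 147, and KRT5, at 687 and 226, and TP63 were lower (16.1% and 5.21% of all measured genes). With the GC trend subtracted KRT14 was under the line (0.88), and KRT5 (-2.07) and TP63 (-1.85) stayed lower.

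**Figure D5:**
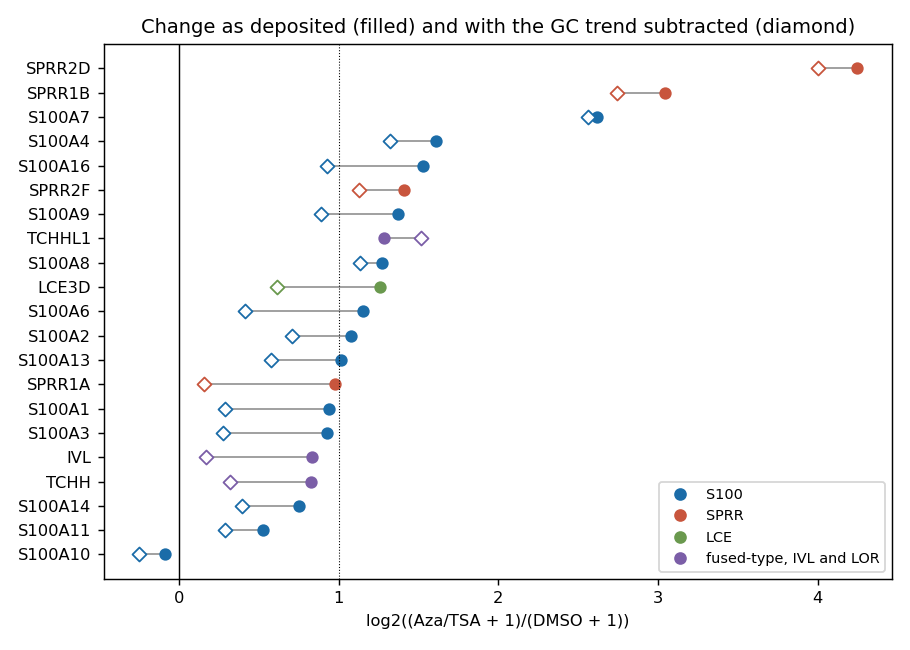
Difference of each measured member as deposited (filled circle) and with the trend on transcript GC content subtracted (open diamond); the dotted line marks 2-fold. The 6 members that cross the line to the left are S100A16, S100A9, LCE3D, S100A6, S100A2 and S100A13, while SPRR2D, SPRR1B, S100A7, S100A4, SPRR2F, TCHHL1 and S100A8 stay beyond it. The trend was fitted on genes at 5 FPKM or more in each library, so diamonds of genes below that are uncertain.

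The UMSCC47 line of the same study was not used. Of the 6 S100 genes that reached 100 FPKM in each FaDu library, none passed 45.7 FPKM in either UMSCC47 column and 4 of the 12 values were listed at 0. Those columns had a Spearman correlation of 0.124 with each other across genes, against 0.909 for the FaDu columns, so the values in them cannot be tied to the genes named beside them.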

How the data were processed

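Polyadenylated RNA of FaDu cells was compared between 1 DMSO library and 1 Aza/TSA library, grouped by their titles and source names. The authors deposited a table of FPKM per gene symbol, per the file headers, and the submitters' processing notes name TopHat 1.3.2, Cufflinks 2.0.2 and the hg19 build. Their annotation and filters were not given in the sources used here. FPKM keep no total count, so depth is unknown. The 45 repeated rows of 25593 were summed, none of them a member. Members and lists were chosen with earlier results of these data known. Named are all members at 1 FPKM or more in either library, other members above 0.1 FPKM or by family, and up to 6 genes of the widest difference per companion list; KLF4, KLF5, FOS, JUN, TGM1, CASP14, KPRP, PTPRC, CSF3R, KRT17, S100P, S100B, S100G, CACYBP, AGER and the lowest members, outside that rule, were chosen after their values were seen. GC content is the median over GENCODE release 29 transcripts, matched for 93.0% of measured genes and all 55 members. Its trend was fitted by lowess (fraction 0.3, statsmodels 0.14.6) over the 7170 genes that reached 5 FPKM in each library. Calls and correction were tested on simulated data with a straight GC trend, little noise and large changes planted only in genes at 5 FPKM or more. That simulation does not cover genes at low levels or differences near the 2-fold line. The protein comparison that was planned was not run. Alternatives were a pseudocount of 0.1 or 5 in place of 1, a filter at 5 FPKM or none, TPM scaling, median centring, the highest row per symbol, a 4-fold call, a limit of 0.5 FPKM for switching on and, added after seeing the data, a length trend. Python 3.11.15 and pandas 2.3.3 were used.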

Additional observations from a re-analysis of the deposited data

How the results depend on the processing

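No called member changed sign with TPM scaling, median centring, or the GC or length trend subtracted. The other settings could not change a sign, since they leave the order of a member's 2 values as it was. Dropping the filter or taking the highest row per symbol could not change a member's call either. The count of higher members, 13, was 8 with a pseudocount of 5, 7 with the GC trend subtracted and 3 with a 4-fold call (SPRR2D, SPRR1B and S100A7; 3.66% of all measured genes), and stayed within 1.5 times of 13 under the other settings. With TPM scaling 1 member was lower (LCE1F), 5 rather than 3 were switched on (4 with a limit of 0.5 FPKM) and 6 SPRR genes were higher. The S100 count, 8, was 3 with the GC trend subtracted and 1 with a 4-fold call. The LCE count, 1, was 0 with a pseudocount of 5, a 5 FPKM filter, the GC trend subtracted or a 4-fold call. The count for the fused-type genes, IVL and LOR, 1, was 3 with a pseudocount of 0.1 or TPM scaling and 0 with a pseudocount of 5, a 5 FPKM filter or a 4-fold call. The median difference of the measured members, 1.15 (0.13 for all measured genes), was 1.50 and 0.73 with pseudocounts of 0.1 and 5, 0.17 over all 55 members, 1.21 with a 5 FPKM filter, 1.11 with TPM scaling, 1.02 with centring on the median of all genes, 0.61 with the GC trend subtracted and 1.09 with the length trend subtracted. Why these values moved was not tested, apart from the settings' own construction (fewer genes measured, a stricter line). TPM scaling was looser by construction. The columns summed to 491963 FPKM with DMSO and 516692 when treated and were raised to a larger common total, with limits and pseudocount unchanged. With it 28 members and 14937 genes counted as measured, against 21 and 13558. Over all genes, higher calls made up 75.5% of calls, 62.3% with centring and 61.5% with the GC trend subtracted. Counts over all genes were 2178 higher and 706 lower, 893 and 253 with a pseudocount of 5, 2948 and 1182 with a pseudocount of 0.1, 918 and 574 with the GC trend subtracted, 496 and 91 with a 4-fold call, 2681 and 1152 with TPM scaling and 1739 and 1051 with centring. No paired analysis was possible because there was 1 library per group. Depth limits what can be said of the 34 members under 1 FPKM in both libraries: 18 of them were listed at 0 in each, which does not show that a gene is silent.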

Other observations

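S100 proteins work through partners encoded outside the complex. Of 18 genes, S100 genes elsewhere in the genome and known binding partners or receptors, 13 were measured, 1 was at least 2-fold higher (ANXA6, at 0.670 FPKM with DMSO and 2.35 when treated) and 0 lower. Over all measured genes 78.7% were within 2-fold, and ANXA6 was measured only through the treated library. S100P, an S100 gene outside the complex, was 42.6 and 60.9 FPKM, and S100B and S100G were listed at 0 in both libraries. ANXA2, the partner of S100A10, was 273 FPKM with DMSO and 436 when treated, and S100A10 stood at 3.51 and 2.06 times its level. ANXA1, the partner of S100A11, was 540 and 288 FPKM, and S100A11 stood at 1.11 and 2.99 times its level. CACYBP, which encodes the calcyclin-binding protein, was 34.2 and 27.2 FPKM, and S100A6 stood at 5.27 and 14.8 times its level. AGER, the receptor for several S100 proteins, was 5.66 and 5.68 FPKM.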
